A study of Mus musculus with 20 samples.

Results

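The early lymphoid priming genes are 9 genes that mark or drive the first steps of lymphocyte formation in multipotent blood progenitors: Dntt, Rag1, Rag2, Il7r, Satb1, Notch1, Ccr7, Ccr9 and Bcl11a. They were taken by name, as the rows of the count matrix whose Ensembl identifier maps to these symbols, and all 9 of 45706 genes in the matrix were found, tested and kept by the filter on low values. RNA sequencing was done on 20 libraries of bone-marrow cells from 8-week-old C57BL/6 mice, sorted by flow cytometry into long-term haematopoietic stem cells (LT-HSC) and the progenitors MPP2 and MPP3. Hopx-wildtype (WT) animals gave 4 LT-HSC, 3 MPP2 and 4 MPP3 libraries, and Hopx-knockout (KO) animals gave 3 of each. The labels name no animals, no sex and no knockout allele, so p-values measure the spread between these libraries, which may be technical. The comparisons asked how the genes differed between the populations, and between KO and WT within each population.

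As background, a small fraction of multipotent progenitors begins to transcribe lymphoid genes before any antigen receptor is rearranged, a state called lymphoid priming. The Rag1 and Rag2 proteins together cut antigen-receptor genes, and Dntt (terminal transferase) adds nucleotides to the cut ends. Satb1 and Bcl11a are nuclear regulators, Il7r and Notch1 are receptors through which the marrow and thymus support lymphoid cells, and Ccr7 and Ccr9 are chemokine receptors that guide progenitors to the thymus. MPP3 are known for granulocyte and macrophage output and MPP2 for platelet and red-cell output. No library is labelled as the lymphoid-leaning progenitor known as MPP4, and whether the MPP3 libraries held such cells was not tested. A sorted library is a bulk sample: fewer cells that express a gene and less RNA per cell cannot be told apart.

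Dntt and Rag2, enzymes of antigen-receptor assembly, had the 2 nearest library profiles among the 9 genes, and Rag1 is the partner of Rag2 although it was read in only 5 libraries. Their promoters are shown for that reason. The RefSeq windows (GRCm38.p6) run over the 250 bases before the start site, 5′ to 3′ on the gene's strand: chr19:41029025-41029274 on the plus strand for Dntt, chr2:101649533-101649782 on the minus strand for Rag1 and chr2:101624462-101624711 on the plus strand for Rag2. Capitals mark matches on either strand to CANNTG (the E-box bound by E proteins), TGTGGT (the core bound by Runx factors) and AGGAAG (bound by Ets factors).
Dntt: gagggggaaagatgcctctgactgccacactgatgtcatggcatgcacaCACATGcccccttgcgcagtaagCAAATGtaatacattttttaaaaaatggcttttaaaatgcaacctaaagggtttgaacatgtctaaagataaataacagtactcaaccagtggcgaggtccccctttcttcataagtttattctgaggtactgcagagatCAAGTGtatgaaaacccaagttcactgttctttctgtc
Rag1: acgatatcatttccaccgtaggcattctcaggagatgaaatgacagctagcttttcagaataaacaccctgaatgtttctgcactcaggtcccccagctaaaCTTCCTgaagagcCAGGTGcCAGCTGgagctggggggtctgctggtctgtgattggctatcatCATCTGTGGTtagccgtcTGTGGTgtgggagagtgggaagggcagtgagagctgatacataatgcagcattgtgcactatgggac
Rag2: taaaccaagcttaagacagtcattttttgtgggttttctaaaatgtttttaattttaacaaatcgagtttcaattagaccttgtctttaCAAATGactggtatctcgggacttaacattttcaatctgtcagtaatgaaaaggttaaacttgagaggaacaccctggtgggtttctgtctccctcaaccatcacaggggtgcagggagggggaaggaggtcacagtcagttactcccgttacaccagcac
The Rag1 window held 3 E-boxes, 2 Runx cores, of which the first overlaps an E-box, and 1 Ets match. The Dntt window held 3 E-boxes and the Rag2 window 1, with no Runx or Ets match in either. Among 32841 promoters of this length, 66.2% held an E-box, 14% the Runx core and 29.5% the Ets letters. RBPJ, the DNA-binding partner of Notch proteins, is represented by the letters GTGGGAA: the Rag1 window held 1 match, and 5.41% of all promoters held at least 1. That match overlaps a match to TGGGAA, the Ikaros letters, which 21.6% of promoters held. The windows hold 41.6% G and C in Dntt, 50.8% in Rag1 and 41.2% in Rag2, against 52.4% over all promoters. Promoter entries were found for 8 of the 9 genes, Ccr7 being without one.

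Each library held between 11163345 and 15189909 reads in genes. Hopx had 0 reads in all 9 KO libraries and also in 1 library labelled wild type (WT LT-HSC replicate 4), and 11.01 to 61.2 normalized counts in the other WT libraries. By Xist and Y-linked transcripts, 6 of 9 KO libraries and 3 of 11 WT libraries were female. Summed LT-HSC markers were 10905 to 15811 in the LT-HSC libraries and 2168 to 5440 in MPP3. Summed MPP3 markers were 30976 to 133963 in MPP3 and 230 to 1222 in LT-HSC. In WT MPP2 they were 2260 to 67353, reaching into the MPP3 range, and in KO MPP2 3078 to 22888. Pax5, which defines B cells, was at 0 in KO MPP3, and Cd3e and Cd3g, which define T cells, were at 0 in both MPP3 groups. Flt3, a receptor of lymphoid and myeloid progenitors, had 6518 to 13242 normalized counts in WT MPP3 and 6625 to 7392 in KO MPP3. In WT LT-HSC it had 166 to 863. Several libraries stood apart from their groups. WT MPP2 replicate 3 had 4080 normalized counts of Flt3, against 94.4 and 138 in the other WT MPP2 libraries. It also had 176989 of Ighm and a summed platelet-marker level of 1740 against 24123 and 34609. KO LT-HSC replicate 1 had a summed level of 10 committed B-cell markers of 5489, against 574 and 715 in the other KO LT-HSC libraries, and a summed level of 6 mature neutrophil markers of 24824, against 56.2 and 265. WT MPP3 replicates 2 and 3 had neutrophil-marker sums of 24381 and 18752, against 209 and 55.9 in the other WT MPP3 libraries and 58.8 to 213 in KO MPP3, and their MPP3-marker sums were the lowest of that population. WT MPP3 replicate 3 also had a committed B-cell sum of 3263, against 751 to 1273 in the other WT MPP3 libraries and 764 to 935 in KO MPP3. The neutrophil-marker sum was 16733 in WT LT-HSC replicate 2 and 7923 in WT MPP2 replicate 2.

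**Figure D1:**
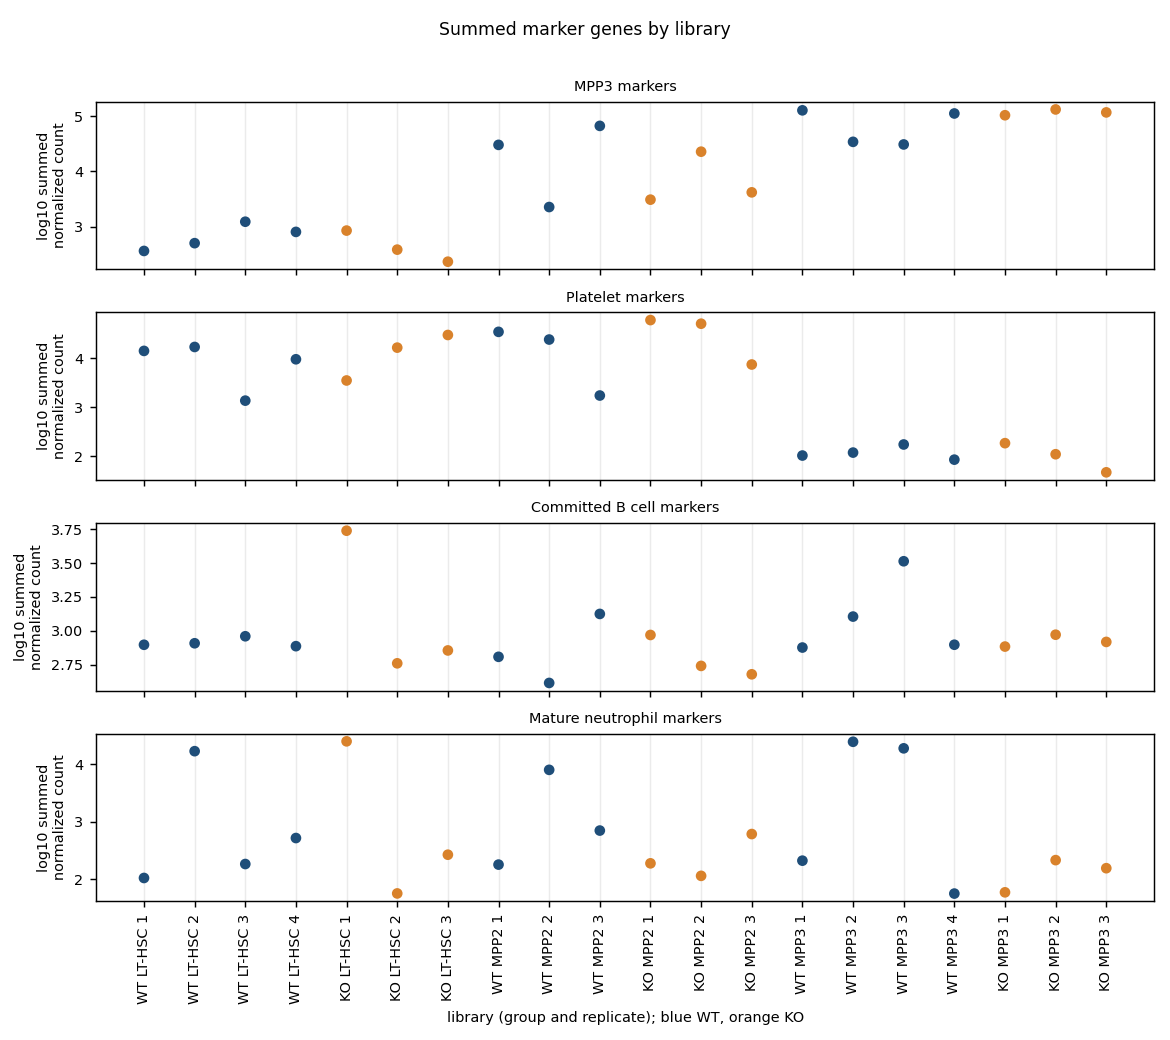
Summed normalized counts of 4 marker lists (MPP3, platelet, committed B-cell and mature neutrophil genes) in each library, on a log10 scale, with 1 point per library, WT in blue and KO in orange. WT MPP2 replicate 3 has a platelet sum of 1740 beside 24123 and 34609, KO LT-HSC replicate 1 a B-cell sum of 5489, and WT MPP3 replicates 2 and 3 neutrophil sums of 24381 and 18752.

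Read over all groups, 8 of the 9 genes had their highest mean in WT MPP3, and 6 of them (Dntt, Rag2, Il7r, Satb1, Notch1 and Ccr7) stood above every WT LT-HSC library in every WT MPP3 library. Rag1 had reads in 5 libraries, from 8 to 50 reads each. Bcl11a was read at similar levels in all 6 groups. The 7 MPP3 libraries each had at least 1 read of 7 to 9 of the genes. LT-HSC and MPP2 libraries had 2 to 6, apart from WT MPP2 replicate 3 with 8 and KO LT-HSC replicate 1 with 7. Levels between genes are compared per kilobase of exon. By WT MPP3 group means on that scale, Dntt led with 4179 normalized counts per kilobase. It was followed by Bcl11a (191), Satb1 (156), Rag2 (126), Ccr7 (86.6), Il7r (51.9), Notch1 (37.3), Ccr9 (4.53) and Rag1 (2.20). The SD of Ccr7 was 86.0, and its place differed between libraries.

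**Figure D2:**
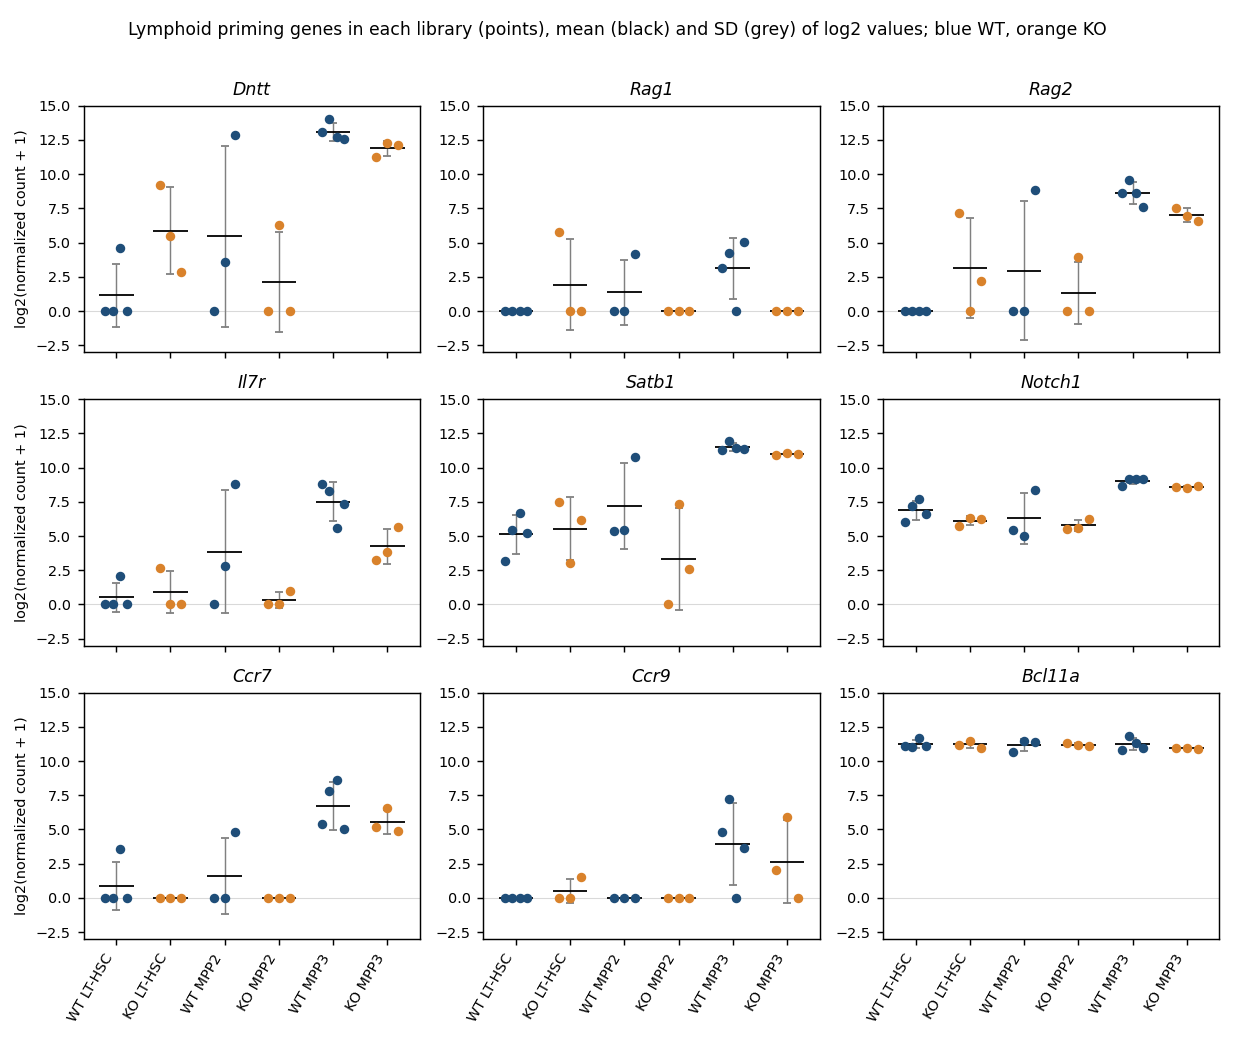
log2(normalized count + 1) of the 9 genes in each library, 1 panel per gene, with 1 point per library in the 6 groups, the group mean of the log2 values as a black line and their SD as a grey bar. In 6 panels (Dntt, Rag2, Il7r, Satb1, Notch1 and Ccr7) all WT MPP3 points lie above all WT LT-HSC points, and the Bcl11a points, 1610 to 3714 normalized counts, lie level in all groups.

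Dntt (ENSMUSG00000025014, chromosome 19, 41029275 to 41059525, plus strand, GRCm38) had 8698, 16951, 6714 and 5950 normalized counts in the 4 WT MPP3 libraries and 2484, 5038 and 4441 in the 3 KO MPP3 libraries. In WT LT-HSC it had 0, 0, 23.3 and 0, and in KO LT-HSC 599, 44.8 and 6.35. In MPP2 it had 0, 11.01 and 7258 in WT and 0, 79.0 and 0 in KO. Every MPP3 library was above every LT-HSC library, and WT MPP2 replicate 3 alone of the MPP2 libraries reached the level of MPP3. The mean was 9578 ± 5049 (SD, n = 4) in WT MPP3 and 5.84 ± 11.7 (n = 4) in WT LT-HSC, where it rested on 22 reads of 1 library. The ratio of these means was 1641. Dntt rose from WT LT-HSC to WT MPP3 by 11.95 ± 2.097 (SE) on the log2(value + 1) scale (limma adjusted p = 0.00237).

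Rag2 (ENSMUSG00000032864, chromosome 2, 101624718 to 101632529, plus strand) followed the same libraries at a lower level. It had 401, 746, 388 and 193 normalized counts in WT MPP3, 187, 123 and 93.6 in KO MPP3, and 0 in all 4 WT LT-HSC libraries. KO LT-HSC held 139, 0 and 3.63, WT MPP2 0, 0 and 450, and KO MPP2 0, 14.2 and 0. Outside MPP3, only KO LT-HSC replicate 1 and WT MPP2 replicate 3 were above the lowest MPP3 library. The mean of 432 ± 230 in WT MPP3 was at least 603-fold above WT LT-HSC, taking 3 reads over the group as the floor, and Rag2 rose by 8.60 ± 1.67 (limma adjusted p = 0.0052). Rag1 (ENSMUSG00000061311, chromosome 2, 101638282 to 101649501, minus strand), its partner and neighbour, had 8.07, 17.6, 0 and 32.5 in WT MPP3, 54.5 in KO LT-HSC replicate 1, 16.5 in WT MPP2 replicate 3 and 0 in the other 14 libraries. No KO MPP3 library held a Rag1 read, and the difference of Rag1 between WT MPP3 and WT LT-HSC did not pass (3.12 on the log2 scale, limma adjusted p = 0.252). B230118H07Rik overlaps both Rag genes, over 1.21% of the Rag1 exon bases and 6.07% of those of Rag2, and whether reads were counted by strand is not stated in the labels.

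Il7r, the receptor chain for interleukin-7 (ENSMUSG00000003882, chromosome 15, 9505788 to 9530176, minus strand), had 440, 319, 47.2 and 161 normalized counts in WT MPP3 and 8.40, 13.2 and 50.9 in KO MPP3. It had 0, 0, 3.18 and 0 in WT LT-HSC and 5.45, 0 and 0 in KO LT-HSC. In MPP2 it had 0, 6.00 and 442 in WT and 0, 0 and 0.982 in KO. Both MPP3 groups were above both LT-HSC groups in every library, and WT MPP2 replicate 3 was again level with the highest WT MPP3 library. The mean was 242 ± 173 in WT MPP3 and rested on 3 reads in WT LT-HSC. By reads pooled over each group and scaled to its depth, WT MPP3 was 322 times as high (95% counting interval 110 to 1563). The rise on the log2 scale was 6.99 ± 1.37 (limma adjusted p = 0.0055).

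Notch1, the receptor that commits progenitors to the T lineage (ENSMUSG00000026923, chromosome 2, 26457903 to 26516663, minus strand), had reads in all 20 libraries. It had 395, 582, 583 and 566 normalized counts in WT MPP3 and 378, 360 and 400 in KO MPP3. LT-HSC had 63.2, 145, 204 and 95.5 in WT and 53.4, 79.9 and 75.3 in KO, and MPP2 had 42.8, 31.0 and 337 in WT and 45.7, 46.2 and 74.7 in KO. Each MPP3 library was above all LT-HSC and MPP2 libraries. Notch1 was 4.19 times as high in WT MPP3 as in WT LT-HSC by group means and rose by 2.17 ± 0.56 (limma adjusted p = 0.0344). This was the smallest of the 6 called rises, and the call was lost when any 1 of WT LT-HSC replicates 1, 2 or 4 or any 1 WT MPP3 library was left out, with no filter on low values, and with edgeR. Over all alternatives its adjusted p ran from 0.00175 to 0.197.

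Satb1, a chromatin organizer of lymphoid progenitors (ENSMUSG00000023927, chromosome 17, 51736187 to 51833290, minus strand), had 2527, 3909, 2754 and 2669 normalized counts in WT MPP3 and 1891, 2147 and 2089 in KO MPP3. LT-HSC had 8.24, 41.8, 102 and 35.7 in WT and 174, 7.03 and 71.7 in KO, and MPP2 had 40.2, 42.0 and 1791 in WT and 0, 162 and 4.91 in KO. Both MPP3 groups lay above every other library, and WT MPP2 replicate 3 lay just below KO MPP3. The WT means were 2965 ± 636 in MPP3 (n = 4) and 46.9 ± 39.4 in LT-HSC (n = 4), a ratio of 63.2, and Satb1 rose by 6.38 ± 1.37 (limma adjusted p = 0.0107). Bcl11a, a zinc-finger factor required for early B cells (ENSMUSG00000000861, chromosome 11, 24078056 to 24174123, plus strand), had group means from 1945 ± 46.4 (KO MPP3, n = 3) to 2513 ± 858 (WT MPP3, n = 4). Its libraries ran from 1610 to 3714, and its difference between WT MPP3 and WT LT-HSC was 0.01 ± 0.22 (95% interval -0.45 to 0.48, limma adjusted p = 0.992).

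Of the chemokine receptors, Ccr9 was low in WT MPP3 (4.53 normalized counts per kilobase). The WT MPP3 mean of Ccr7 (86.6 ± 86.0 SD, n = 4) was above those of Il7r (51.9) and Notch1 (37.3) on that scale. This order rested on replicates 2 and 3, where Ccr7 had 111 and 198. In replicates 1 and 4 it had 20.9 and 16.4, below Il7r (94.3 and 34.6) and Notch1 (27.8 and 39.8). Ccr7 (ENSMUSG00000037944, chromosome 11, 99144196 to 99155077, minus strand) had 41.4, 220, 391 and 32.5 normalized counts in WT MPP3 and 35.7, 92.5 and 28.2 in KO MPP3. Of the other 13 libraries only WT LT-HSC replicate 3 (10.6) and WT MPP2 replicate 3 (27.2) held a read, so all MPP3 libraries were above all others. The highest Ccr7 levels were in WT MPP3 replicates 2 and 3, the libraries with the high neutrophil-marker sums, and the part of those cells in the Ccr7 level was not tested. Ccr7 was 64.5 times as high in WT MPP3 as in WT LT-HSC by means and rose by 5.83 ± 1.12 (limma adjusted p = 0.0048). Ccr9 (ENSMUSG00000029530, chromosome 9, 123678439 to 123784330, plus strand) had 27.2, 147, 0 and 11.7 in WT MPP3, 3.15, 59.5 and 0 in KO MPP3, 1.82 in KO LT-HSC replicate 3 and 0 in the other 12 libraries. Its MPP3 and LT-HSC libraries overlapped in both genotypes, and it did not pass the test in WT (3.92 ± 1.26, limma adjusted p = 0.102), although the WT MPP3 mean was at least 64.9-fold above the floor for WT LT-HSC. Ccr9 passed with the run of library numbers as a covariate (4.27, limma adjusted p = 0.0452) and without WT MPP3 replicate 3, which held no read of it (5.23, adjusted p = 0.0135). Over all alternatives its adjusted p ran from 0.0135 to 0.375. Exons of other annotated genes cover 21.5% of the Ccr9 exon bases.

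**Figure D3:**
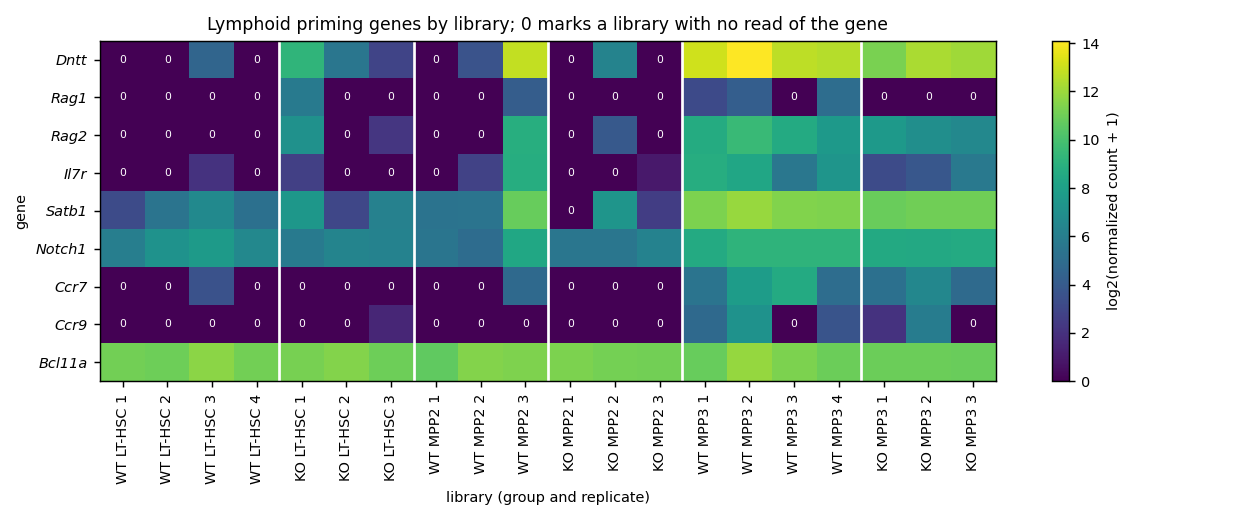
log2(normalized count + 1) of the 9 genes (rows) in the 20 libraries (columns, by group), from dark (0) to bright, with 0 written where a library held no read. The MPP3 columns and WT MPP2 replicate 3 are brighter than the others for most genes, KO LT-HSC replicate 1 is brighter than the other LT-HSC libraries for Dntt and both Rag genes, and the Bcl11a row is even.

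From WT LT-HSC to WT MPP3 limma called 6 of the 9 genes, all higher. Over the 17160 genes tested, 3.97% were called and 1.5% were called higher, and 4.22% had every WT MPP3 library above every WT LT-HSC library, as 6 of the 9 did. The median log2 fold change of the 9 was 5.83, against -0.03 over all genes tested. The 6 differences were positive within each of the 3 runs of library numbers in the labels that hold both groups. The direction of these 6 held in each alternative run. The number called was 7 with the run of library numbers as a covariate, where Ccr9 was added, 6 with voom, 5 with DESeq2, which gave Satb1 no adjusted p, and 3 with edgeR on reads recovered from 20 libraries (Dntt, Il7r and Satb1). It was 2 with both WT MPP3 replicates 2 and 3 left out (Dntt and Il7r), a setting chosen after the values were seen. Of all 17160 genes, 758 were called with the number run, 765 with voom, 881 with DESeq2 and 429 with edgeR. With both WT MPP3 replicates 2 and 3 left out, 445 were called.

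Some markers of other lymphoid and dendritic cells moved with this step. Of 6 tested markers of plasmacytoid dendritic cells, a list that also holds Ccr9, Cox6a2 (8.24, limma adjusted p = 0.000826) and Irf8 (4.61, 0.0208) rose, and the list's summed level was 5362 to 7167 normalized counts in WT MPP3 and 2584 to 3283 in WT LT-HSC. Siglech, which defines those cells, was at 0 in WT LT-HSC and had 14.12, 1.26, 0 and 0 in WT MPP3. Of 6 tested markers of T and NK cells, Nkg7 (1.48, limma adjusted p = 0.00544) and Lck (2.1, 0.0208) rose, with sums of 6004 to 10284 in WT MPP3 and 2301 to 3506 in WT LT-HSC. The same sum was 7462 to 10238 in WT MPP2, overlapping WT MPP3. Limma called none of 6 tested markers of committed B cells in this step. The part of such cells in the rise of the 6 genes was not tested.

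In KO the step from LT-HSC to MPP3, measured in other libraries, gave 1 called gene of the 9. Ccr7 had 0 reads in KO LT-HSC and 52.1 ± 35.2 in KO MPP3 (n = 3), at least 54.4-fold above the floor (5.54 ± 1.29, limma adjusted p = 0.0306). Over all genes 1.91% were called and 0.909% were called higher. Dntt (18.4 times as high by means), Il7r (13.3), Satb1 (24.2) and Notch1 (5.45) did not overlap between KO MPP3 and KO LT-HSC either, with KO MPP3 higher, a pattern found in 10.1% of all genes. Their log2 differences were 6.02 ± 2.42 for Dntt (limma adjusted p = 0.329), 3.36 for Il7r (adjusted p = 0.467), 5.45 ± 1.58 for Satb1 (adjusted p = 0.0984) and 2.45 ± 0.65 for Notch1 (adjusted p = 0.0632). Leaving out any 1 KO LT-HSC or KO MPP3 library left 0 of the 9 called. Of all 17160 genes, 203 to 212 were called without 1 KO LT-HSC library and 161 to 181 without 1 KO MPP3 library. Leaving out both KO LT-HSC replicate 1 and WT MPP2 replicate 3, which was chosen after the values were seen, gave 5 of the 9 (Ccr7, Dntt, Notch1, Rag2 and Satb1). In that setting 293 of all 17160 genes were called. Bcl11a was lower in every KO MPP3 library than in every KO LT-HSC library, as were 10.3% of all genes, and did not pass (-0.28, limma adjusted p = 0.87). Calls in WT and in KO are given side by side, and the test of a KO difference that varies among the populations, given with the genotype comparisons, called 0 of the 9.

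Between MPP3 and MPP2 the picture depended on WT MPP2 replicate 3. In KO, 4 of 9 were called and all were higher in MPP3: Dntt (151 times by means, 9.79 ± 2.42, limma adjusted p = 0.0372), Satb1 (36.8 times, 7.69 ± 1.58, 0.0155), Notch1 (6.83 times, 2.79 ± 0.65, 0.028) and Ccr7 (at least 55.4-fold, 5.54 ± 1.29, 0.0279). Of all genes 2.79% were called and 2.12% were called higher. Rag2 (28.4 times by means) and Il7r (80.03 times by reads pooled over each group and scaled to its depth, on 1 read in KO MPP2, 95% counting interval 13.9 to 3201) also did not overlap, as did 13.2% of all genes in this direction, and did not pass. Bcl11a was lower in every KO MPP3 library than in every KO MPP2 library, as were 7.44% of all genes, and did not pass (-0.27). Leaving out KO MPP2 replicate 1 or any 1 KO MPP3 library ended all 4 calls, and leaving out KO MPP2 replicate 3 left Notch1 alone. Of all 17160 genes, 252 were called without KO MPP2 replicate 1, 107 to 134 without 1 KO MPP3 library, and 241 without KO MPP2 replicate 3. The comparisons of MPP3 with LT-HSC and with MPP2 share the MPP3 libraries.

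In WT, limma called 0 of the 9 between MPP3 and MPP2, where 0.431% of all genes were called. Of the 9, 7 had an unadjusted p under 0.05 in limma. The share of all genes under that unadjusted cut was not computed. Counts at an unadjusted p, here and below, thus have no background beside them and are not calls. Of the other tools, edgeR called 0 of the 9 (49 of all 17160 genes), DESeq2 0 (276) and voom 2 (63). Satb1, Notch1 and Ccr7 did not overlap between the groups, with MPP3 higher, a pattern of 3.89% of all genes. Without WT MPP2 replicate 3, limma called 6 (Dntt, Rag2, Il7r, Satb1, Notch1 and Ccr7), and 417 of all 17160 genes were called in that setting. Between MPP2 and LT-HSC limma called 0 of the 9 in WT and 0 in KO, with 1 and 0 at an unadjusted p under 0.05. Over all genes 0.833% and 1.2% were called. DESeq2 called Dntt, Il7r and Rag2 in the WT comparison, where it called 420 of 17160 genes and where 1 MPP2 library held nearly all their reads. EdgeR and voom called 0 of the 9 in both.

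**Figure D4:**
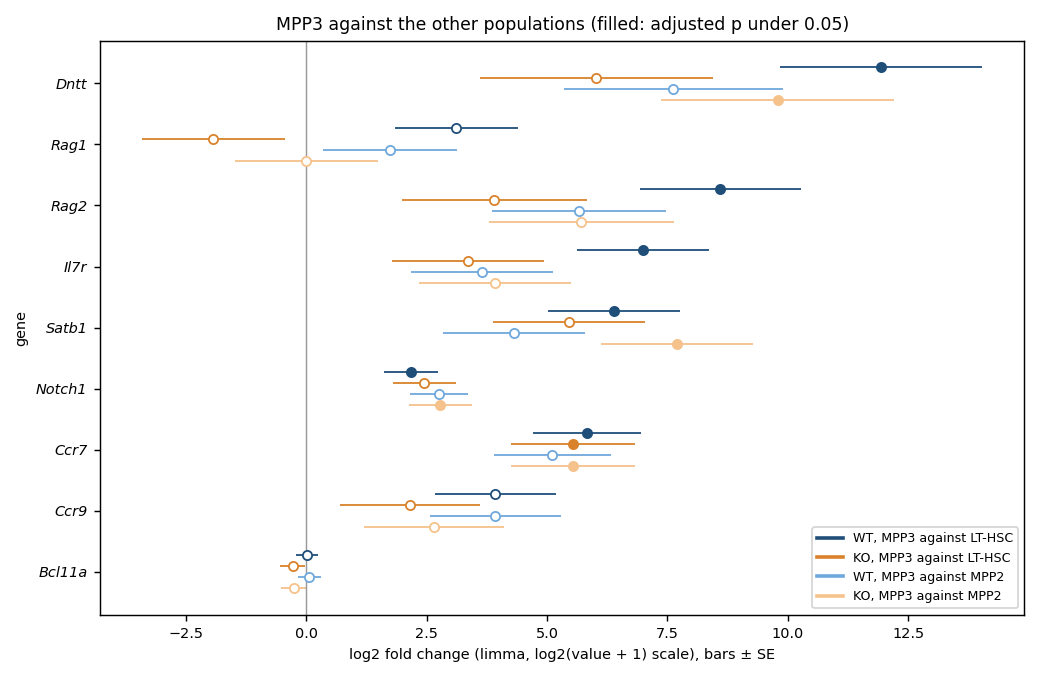
log2 differences of the 9 genes between MPP3 and LT-HSC and between MPP3 and MPP2, in WT and in KO, as points with bars of 1 SE from limma. Filled points passed at an adjusted p under 0.05: 6 in WT and 1 in KO against LT-HSC, and 0 in WT and 4 in KO against MPP2.

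KO was compared with WT within each population, and limma on all 20 libraries called none of the 9. DESeq2 called Rag2 in LT-HSC, where it called 21 of 17160 genes, and Il7r in MPP2, where it called 112. KO LT-HSC replicate 1 held 128 of the 132 Rag2 reads of KO LT-HSC. WT MPP2 replicate 3 held 374 of the 380 Il7r reads of WT MPP2. In MPP3 all 9 fitted differences were negative, with a median of -1.20 against 0.03 over all genes, and limma called 0, against 0.00583% of all genes. EdgeR, DESeq2 and voom called 0 as well. Il7r was 24.2 ± 23.3 normalized counts in KO MPP3 (n = 3) and 242 ± 173 in WT MPP3 (n = 4), 10.01 times lower by means, and 2 of 3 KO libraries lay below all 4 WT libraries. Its log2 difference was -3.26 ± 1.48 (95% interval -6.37 to -0.14, limma adjusted p = 1). Rag1, with 0 reads in KO MPP3 and 58 in WT MPP3, was at least 15.02-fold lower by the floor of 3 reads (-3.12 on the log2 scale, limma adjusted p = 1). These were the 2 genes with an unadjusted p under 0.05, Il7r at 0.0413 and Rag1 at 0.0373, in limma.

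Dntt, Rag2 and Satb1 were lower in every KO MPP3 library than in every WT MPP3 library, by 2.40, 3.22 and 1.45 times in the means, as were 1.82% of all genes. Their intervals were wide: Dntt differed by -1.20 ± 2.26 (95% interval -5.96 to 3.57), Rag2 by -1.58 ± 1.80 (-5.37 to 2.21) and Satb1 by -0.52 ± 1.48 (-3.63 to 2.59). Within both runs of library numbers that hold MPP3 of each genotype, Dntt, Rag1, Rag2, Il7r, Satb1 and Notch1 were lower in KO. With the number run as a covariate over all groups the sign turned for Dntt (0.35), Satb1 (0.57) and Notch1 (0.06). Notch1, Ccr7 and Ccr9 overlapped between the genotypes, with means 1.40, 3.28 and 2.23 times lower in KO. The neutrophil-marker sums of WT MPP3 replicates 2 and 3, and the B-cell sum of 3263 in replicate 3, were above those of every KO MPP3 library. The MPP3 markers Mpo (13394 and 17304) and Elane (2.51 and 51.7) were low in these replicates 2 and 3. The other MPP3 libraries of both genotypes had 84728 to 106387 and 6702 to 16051. Cd48 was not lower (7860 and 6574). The lymphoid surface gene Ly6d had 269 and 644, against 0 and 3.61 in the other WT MPP3 libraries and 0 in KO MPP3. The part of this in the KO differences was not tested. Without WT MPP3 replicates 2 and 3 the difference of Ccr7 turned to 0.30, and those of Il7r (-3.81), Rag2 (-1.10) and Dntt (-0.91) stayed negative.

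In LT-HSC the 9 genes had a median difference of 0.42 between KO and WT, against -0.03 over all genes. Limma called 0 of the 9, with 0 at an unadjusted p under 0.05, where 0.00583% of all genes were called. Dntt was 37.1 times as high in KO by means, a difference carried by KO LT-HSC replicate 1 (599 normalized counts), whose B-cell and neutrophil marker sums were also high. Their part in the difference was not tested. The log2 difference of Dntt was 4.72 ± 2.26 (limma adjusted p = 1) and 3.05 without that library and WT MPP2 replicate 3. In MPP2 limma called 0 of the 9, where 0.0117% of all genes were called, with Il7r (-3.54) and Satb1 (-3.90) at an unadjusted p under 0.05. Satb1 was called when KO MPP2 replicate 2 was left out (limma adjusted p = 0.0414), a setting in which 350 of all 17160 genes were called. Without WT MPP2 replicate 3 the difference of Satb1 was -2.09, and those of Dntt (0.31), Rag2 (1.31) and Notch1 (0.56) were positive. EdgeR and voom called 0 in LT-HSC and in MPP2.

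**Figure D5:**
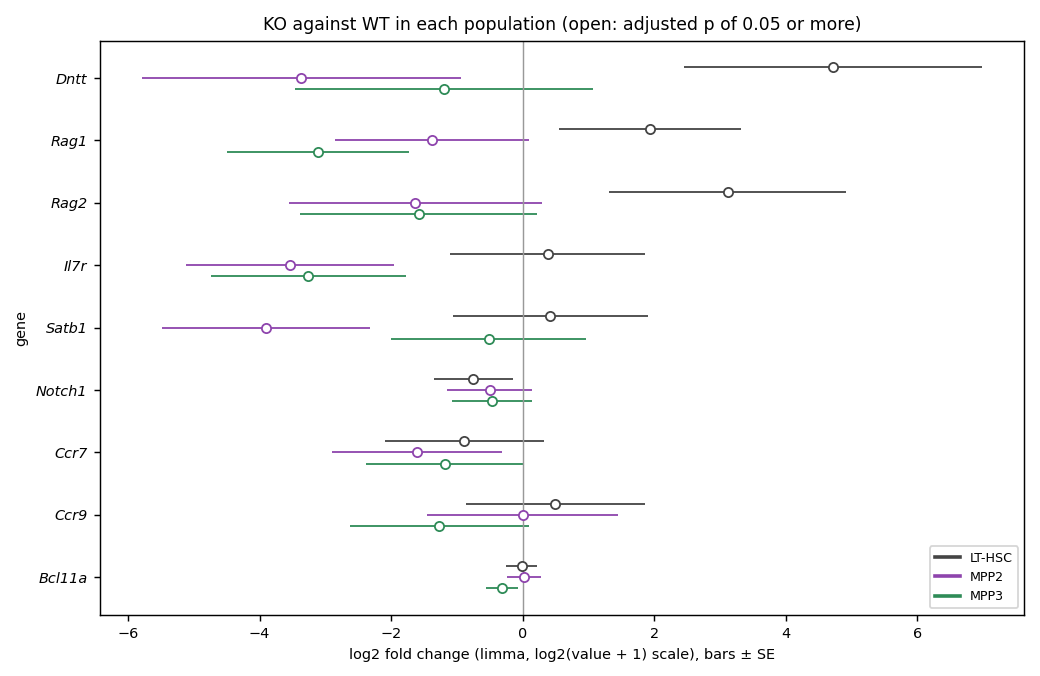
log2 differences of the 9 genes between KO and WT in LT-HSC, MPP2 and MPP3, as points with bars of 1 SE from limma. In MPP3 all 9 points lie below 0, from -3.26 (Il7r) to -0.31 (Bcl11a), and every point is open because none passed at an adjusted p under 0.05.

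Averaged over the 3 populations, limma called 0 of the 9 genes (0.0117% of all genes), with Il7r at an unadjusted p of 0.0253 (-2.14, limma adjusted p = 0.857), and edgeR, DESeq2 and voom called 0. A test of whether the KO difference varied among the populations called 0 of the 9 in limma, where 0% of all genes were called, with 0 at an unadjusted p under 0.05.

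Genes around these receptors and enzymes were read from 5 lists. Of 15 tested surface and signalling genes of lymphoid-primed progenitors, 6 rose from WT LT-HSC to WT MPP3, against 1.5% of all genes called higher. Btla, an inhibitory receptor of lymphocytes, went from 0 to a mean of 296 normalized counts (8.08, limma adjusted p = 0.000199), Ly86 rose by 7.97 (0.00446) and Flt3 by 4.44 (0.00378), and Ighm and Lck were also among those called. In KO the same step called 4 of these higher, among them Btla (7.53), Flt3 (4.96) and Ly86 (8.50), against 0.909% of all genes. The list's median was 2.1 in WT and 0.77 in KO, against -0.03 and 0.03 over all genes. Of 18 lymphoid transcription factors tested, Spi1 (1.29, limma adjusted p = 0.0198) and Irf8 (4.61, 0.0208) rose in WT, both also known as myeloid regulators, and Irf8 (7.63) in KO, against the same 1.5% and 0.909%.

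The other lists hold genes downstream of these receptors and enzymes. Since 3.97% of all genes were called from WT LT-HSC to WT MPP3 and 1.91% in KO, few or no calls in lists of this size are near the background. Of 19 Notch pathway genes tested, none was called in WT, and Hes1, a Notch target, had -3.47 (limma adjusted p = 0.0946). In KO 1 was called, Notch3, which fell from 27.5 to 0 normalized counts (limma adjusted p = 0.0201). None of 8 genes of IL-7 signalling and none of 12 genes of end joining passed in either genotype, Stat5a having -0.59 (limma adjusted p = 0.274) and Polm -3.16 (0.154) in WT. Between KO and WT none of the 5 lists had a called gene in any of the 3 populations.

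Among the 9 genes, the library profiles nearest to each other were those of Dntt and Rag2, with a mean absolute difference of 0.248 SD over the 20 libraries after each gene was centred and divided by its SD. Dntt and Satb1 (0.273) and Notch1 and Ccr7 (0.30) came next, and Rag2 and Bcl11a were the farthest apart (1.18). By the same measure over 12036 other genes, the nearest to Dntt was Rasa4 (0.342), to Rag2 Tm6sf1 (0.326), to Satb1 Milr1 (0.161), to Notch1 Flt3 (0.276), to Ccr7 Gm20496 (0.261), to Il7r Cd44 (0.366) and to Ccr9 Poll (0.457). The nearest to Rag1 was Cebpz (0.49). For Bcl11a the nearest, 4930538E20Rik (0.584), overlaps it in exons.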

How the data were processed

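RNA was sequenced from 20 libraries of sorted LT-HSC, MPP2 and MPP3 cells, made with the Nextera XT kit per the labels. Per the submitters' processing notes, the authors used TopHat2 2.1.1, the build GRCm38, HTSeq 0.11.2 and DESeq. Which annotation release they counted on, and whether by strand, was not given in the sources used here. The deposited values are a normalized signal: read counts divided by 1 factor per library, called normalized counts here. Whole reads were recovered, with 100% of values whole within a tolerance of 1e-06, and 18 of 20 libraries could be judged automatically. The 5 summary rows were left out, and 0 columns were unmapped. GENCODE M21 gave symbols for 45143 of the 45706 identifiers, and reads in genes numbered 11163345 to 15189909 per library.

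The main test was limma 3.58.1 in R 4.3.3 on log2(value + 1), robust and with a mean-variance trend, fitting 6 group means over 20 libraries. Of the genes, 17160 passed the low-count filter of edgeR, and those under 0.05 after Benjamini-Hochberg adjustment over all 17160 were called. The added 1 understates the change of low genes, and a fold of group means can differ from the fitted log2 difference where libraries of a group differ widely. EdgeR 4.0.16, DESeq2 1.42.0 and voom on the recovered reads, TMM scaling, pseudocounts of 4 and 16, no filter (30143 genes), covariates and left-out libraries were alternatives. From WT LT-HSC to WT MPP3, edgeR called 429 genes on 20 libraries and 242 on 18. Leaving out both KO LT-HSC replicate 1 and WT MPP2 replicate 3, or both WT MPP3 replicates 2 and 3, was added after the values were seen.

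The 9 genes and the gene lists were chosen with earlier results of these data known. All 9 are named in every comparison, with the nearest library profile among 12036 genes whose mean log2 value is at least 5, and genes of the lists with their values. Some genes of the lists are counted but not reported by name here. Replicate numbers follow accession order. Scripts ran in Python 3.11.15 and were tested on simulated data. Floors of 3 reads over a group and 95% intervals of read ratios cover counting error only.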

Additional observations from a re-analysis of the deposited data

Results flagged for a closer look

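In groups of 4 libraries, the highest or lowest library was compared with its nearest neighbour relative to the range of its group. Chance marks about 1 in 20 groups, and 6 of 15 groups checked held such a library. In 4 of the 6 it was WT LT-HSC replicate 3, which stood above the other WT LT-HSC libraries with 23.3 normalized counts of Dntt, 3.18 of Il7r, 10.6 of Ccr7 and 3268 of Bcl11a. For Dntt, Il7r and Ccr7 the other 3 libraries of that group were at 0, so the gap equals the range at any level above 0 (3 reads for Il7r), and the chance rate does not apply to these 3. Satb1 in WT MPP3 replicate 2 (3909 normalized counts) stood above the other WT MPP3 libraries, and Notch1 in WT MPP3 replicate 1 (395) stood below them.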

How the results depend on the processing

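The labels give no replicate numbers that pair the libraries and name no animals, so the run of library numbers was fitted as a block in place of a replicate block. The number of the 9 genes called depended on the test and on single libraries, and the cause was not tested. From WT LT-HSC to WT MPP3 the 6 called were 3 with edgeR on 20 libraries, 2 with edgeR on 18, 2 without both WT MPP3 replicates 2 and 3, and 5 to 6 when each library was left out, and with the number run they were 7, Ccr9 being added. Of all 17160 genes, 681 were called in the main fit, 429 and 242 with edgeR, and 445 without WT MPP3 replicates 2 and 3. With the number run 758 were called, and 444 to 839 over single libraries. From KO LT-HSC to KO MPP3 the 1 called was 0 with edgeR on 20 or 18 libraries, 2 with DESeq2, voom, either larger pseudocount, the library-number run or sex as a covariate, the 3 lowest-numbered libraries left out, or WT MPP2 replicate 3 and WT LT-HSC replicate 4 left out, 5 without KO LT-HSC replicate 1 and WT MPP2 replicate 3, and 0 to 3 over single libraries. Of all genes, 327 were called in the main fit, 190 and 181 with edgeR, 595 with DESeq2 and 309 with voom. Pseudocounts of 4 and 16 gave 391 and 461, the number run 311 and sex 348. The settings leaving out several libraries gave 392, 353 and 293, in the order above. Single libraries gave 161 to 415. Between WT MPP3 and WT MPP2 the count of 0 became 2 with voom or either covariate, 1 with either larger pseudocount, 5 without the 3 lowest-numbered libraries, 6 without either pair that holds WT MPP2 replicate 3, and 0 to 6 over single libraries. Of all genes, 74 were called in the main fit, 63 with voom, 61 with the number run and 99 with sex. Pseudocounts of 4 and 16 gave 95 and 119. Without the 3 lowest-numbered libraries 270 were called. The pair with WT LT-HSC replicate 4 gave 342, the pair with KO LT-HSC replicate 1 gave 387, and single libraries gave 9 to 417. Between KO MPP3 and KO MPP2 the 4 called were 0 with edgeR on 20 libraries, 1 on 18, 2 with DESeq2 and 0 to 5 over single libraries. Of all genes, 478 were called in the main fit, 197 and 200 with edgeR, 885 with DESeq2 and 107 to 1178 over single libraries. DESeq2 called 3 between WT MPP2 and WT LT-HSC and 1 between KO and WT in each of LT-HSC and MPP2, where limma called 0, and KO against WT in MPP2 gave 0 to 1 over single libraries. DESeq2 gave Satb1 no adjusted p in any comparison, so Satb1 has no DESeq2 value. No difference that passed turned its sign in these alternatives. The differences below did not pass and turned. Bcl11a, near 0 throughout, had -0.042, -0.031 and -0.33 for WT MPP3 against WT LT-HSC without the 3 lowest-numbered libraries, without WT MPP2 replicate 3 and WT LT-HSC replicate 4, and without WT MPP3 replicates 2 and 3 (-0.19 to 0.17 over single libraries). It had 0.0053 for WT MPP2 against WT LT-HSC (-0.20 to 0.21) and 0.0048 for KO MPP2 against KO LT-HSC (-0.14 to 0.11) with TMM, and -0.034 and -0.28 for WT MPP3 against WT MPP2 (-0.20 to 0.22). Between KO and WT, Bcl11a had 0.12 and 0.14 in LT-HSC (-0.14 to 0.14), -0.00049, -0.014, -0.021 and -0.11 in MPP2 with TMM, edgeR, DESeq2 and sex (-0.24 to 0.17), 0.035 in MPP3, and 0.057, 0.053 and 0.013 on average. Between WT MPP2 and WT LT-HSC, Notch1 had 0.10 and 0.57 with edgeR on 20 and 18 libraries and 0.11 with DESeq2 (-1.64 to 0.060), and Ccr7 had -1.18 and -0.88 without WT MPP2 replicate 3 (-0.88 to 1.61). Between KO MPP2 and KO LT-HSC, without KO LT-HSC replicate 1, Il7r had 0.33 (-1.01 to 0.33) and Rag2 0.20 (-3.36 to 0.20). Il7r had -0.31 with edgeR on 18 libraries for WT MPP3 against WT MPP2. Between KO and WT LT-HSC, Il7r had -0.51 with sex and -0.52 without KO LT-HSC replicate 1 (-0.52 to 0.90), Satb1 -0.53 (-0.53 to 1.69) and Ccr7 0.086 with the number run. Between KO and WT MPP2, without WT MPP2 replicate 3, Dntt had 0.31 (-6.10 to 0.31), Notch1 0.56 (-1.14 to 0.56) and Rag2 1.31 (-3.10 to 1.31). Between KO and WT MPP3 the number run turned Dntt to 0.35, Satb1 to 0.57 and Notch1 to 0.063, leaving out WT MPP3 replicates 2 and 3 turned Ccr7 to 0.30, and Ccr9 ran from -2.90 to 0.061. On average over the populations, Dntt had -0.81 and -1.02 with edgeR, -0.85 with DESeq2, -0.20 and -0.43 with pseudocounts of 4 and 16 and -0.89 with sex (-0.86 to 1.28). Ccr9 had 0.49 and 0.44 with edgeR, 0.18 with DESeq2, 0.048 with the number run and 0.11 without the 3 lowest-numbered libraries (-0.80 to 0.19). Rag2 had 0.68 and 0.48 with edgeR, 5.50 with DESeq2, 0.21 with voom, 0.88 with the number run, and 1.05, 0.95, 0.28 and 0.13 in the 4 settings that left out several libraries (-0.70 to 0.95). A count of 0 allows up to 3 reads per group, which limits Rag1, Rag2, Ccr7 and Ccr9 in the groups where they were at 0.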
